A study of Homo sapiens with 6 samples.

Results

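Cytosolic aminoacyl-tRNA synthetases and the amino acid genes of the ATF4 response were followed as a set of 46 genes: 20 synthetases, 11 enzymes of amino acid and one-carbon synthesis, 5 amino acid transporters, and 10 stress genes and regulators. They were matched by gene symbol, in the older spelling that the count tables use, and all 46 were found among 24462 symbols. Of these, 43 were among the 12650 genes with enough counts to be tested. The 3 that were not tested, PHGDH, ALDH1L2 and CBS, had at most 10, 3 and 2 counts in any library.

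RNA was taken from MDA-MB 231 cells, a claudin-low triple-negative breast cancer cell line, 48 h after transfection, with 2 libraries in each of 3 groups. The NC mimic group received a negative control mimic, whose dose is not given in the sources used here. The miR-200a group received the miR-200a mimic at 100 nM. The third group received the miR-200a mimic at 100 nM together with 30 ng of an ELK3 expression plasmid, pcDNA3.1 with a Hygro(+) backbone in one label and with a Flag tag in the protocol, that carries the coding region without the natural 3′UTR of ELK3. All groups shared the cell line, Lipofectamine 3000 and the time point. The labels name a plasmid, empty or not, in the third group alone. Effects of plasmid DNA and of ELK3 thus cannot be told apart in its comparisons. Nothing in the labels says that 2 libraries of a group came from separate cultures. The p-values therefore measure only the spread between these libraries, which may be technical.

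Aminoacyl-tRNA synthetases join each amino acid to its tRNA and so set the supply of charged tRNA for protein synthesis. When charged tRNA runs short, or when unfolded protein collects in the endoplasmic reticulum, kinases such as GCN2 (EIF2AK4) and PERK (EIF2AK3) phosphorylate eIF2alpha, most translation slows, and translation of the transcription factor ATF4 rises. ATF4 pairs with C/EBP proteins on a composite C/EBP-ATF response element and switches on genes for amino acid uptake, amino acid synthesis and tRNA charging, together with stress genes such as DDIT3 and TRIB3. Because ATF4 is controlled largely at translation and by protein stability, its mRNA level is only one part of its activity.

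The mimic is shown because it defines the treatment, and the promoter elements because ATF4 acts through such elements. The set of genes is a list of symbols that was drawn up for the ATF4 response. The share of its promoters that hold such an element is therefore not independent of how the genes were chosen. The mature miR-200a-3p, encoded at chr1:1167916-1167937 on the plus strand (GRCh38.p14, RefSeq), is printed with its seed, bases 2 to 8, in capitals:
miR-200a-3p: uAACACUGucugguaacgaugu

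A promoter window of 250 bases before to 50 bases after the transcription start was found in RefSeq (GRCh38.p14) for 37 of the 46 members. The windows were searched on both strands for TGATGNAA, the core of the C/EBP-ATF response element. It was present in 9 of the 37 member promoters (24.3%) and in 1270 of all 35116 promoters of this length (3.62%). The stricter form TGATGCAA, which lies within the first, was present in 7 member promoters (18.9%) and in 304 of all promoters (0.866%). The 9 matches are printed 5′ to 3′ on the strand that carries the motif, with the motif in capitals, and 6 of them were in promoters of synthetases:
AARS, chr16:70289676-70289703 (+): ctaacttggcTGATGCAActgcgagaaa
CARS, chr11:3057408-3057435 (+): tcctagaatcTGATGCAAccgccgcccc
IARS, chr9:92293693-92293720 (+): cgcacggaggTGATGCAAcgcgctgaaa
MARS, chr12:57488054-57488081 (-): aatccctcgcTGATGCAAccggaaccgg
NARS, chr18:57621805-57621832 (-): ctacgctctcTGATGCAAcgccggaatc
TARS, chr5:33440957-33440984 (-): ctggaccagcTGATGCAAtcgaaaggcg
ASNS, chr7:97872459-97872486 (-): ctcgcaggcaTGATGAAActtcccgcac
SLC3A2, chr11:62881726-62881748 (-): ggagcTGATGTAAggagtcctgc
CHAC1, chr15:40953252-40953279 (-): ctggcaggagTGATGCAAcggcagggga

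The match of IARS began 13 bases before the transcription start and ended before it. Those of CARS and MARS began 2 and 4 bases before the start and ran across it. The matches of TARS, NARS and SLC3A2 began 2, 14 and 37 bases after the start. The motif of CHAC1 lay 209 bases and that of AARS 187 bases before the start, and the ASNS motif 68 bases before it. These matches are letters in a window, and binding of ATF4 was not measured here. The promoters of DARS, LARS, VARS, YARS, PSPH, SHMT2, ALDH1L2, PYCR1 and SLC7A11 were not in the table.

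Total counts were between 3055915 and 4868004 per library, and 3 counts, taken as the smallest detectable value, corresponded to between 0.611 and 0.979 CPM, the counts relative to the TMM-scaled size of the library; this floor covers counting error only. The members together took 0.460% to 0.558% of all counts. Among the mesenchymal markers of this line, VIM, CD44, AXL, CAV1 and ZEB1 were well detected, and of the luminal markers ESR1 was at 0 counts in all libraries and PGR, FOXA1, TFF1 and CLDN3 at 7 counts or fewer, while GATA3 had 14 to 42 counts. ELK3, the gene on the plasmid, had 618 and 509 counts under the NC mimic, 493 and 505 under miR-200a, and 406 and 337 in libraries labelled as miR-200a plus ELK3. ELK3 was thus not higher in the libraries labelled with the plasmid (log2 fold change of -0.23, adjusted p = 0.354 against miR-200a), and against the NC mimic it fell by 0.79 (adjusted p = 0.0117, and 0.159 without NC mimic replicate 2). QuantSeq reads lie near the 3′ end of a transcript, and whether transcripts of a plasmid without the natural 3′UTR enter this count was not tested. Over all tested genes, the pair labelled as miR-200a plus ELK3 also differed most, by a root mean square of 0.56 in log2 CPM, whereas the pairs of the NC mimic and of miR-200a differed by 0.40 and 0.34. Over the tested members these distances were 0.50, 0.27 and 0.20.

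The first question was whether the miR-200a mimic alone changed the synthetases and amino acid genes. The comparisons used the quasi-likelihood test of edgeR on all 6 libraries, with Benjamini-Hochberg adjustment over all tested genes, and a gene was called at an adjusted p under 0.05. No member was called for miR-200a versus the NC mimic, where 34 of all 12650 genes (0.269%, with 0.213% higher and 0.0553% lower) were called. At an unadjusted p under 0.05, 7 of the 43 members passed, 1 higher and 6 lower, compared with 9.24% of all genes (5.13% higher and 4.11% lower), and DESeq2 called SLC7A5 alone, as higher. The median log2 fold change of the members was -0.15, and that of all genes was -0.02. In 25 of the 43 members both miR-200a libraries were below both NC mimic libraries, and in 7 they were above, where 26.1% of all genes were below and 22.9% above in this way. The 6 lower members at the unadjusted threshold were TARS, ASNS, SLC7A11, DDIT4, CHAC1 and STC2, and the higher one was SLC7A5. When the model held only the 4 libraries of these groups, 2 members were called higher (CEBPB and SLC7A5) and 6 lower (ASNS, DDIT4, SARS, SLC7A11, STC2 and TARS). In that model the calls over the whole table also rose, to 588 of 12460 genes higher and 395 lower. In such bulk RNA, fewer cells that express a gene and less RNA of it per cell cannot be told apart.

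The second question was whether the libraries labelled with the ELK3 plasmid differed from miR-200a alone. Here 11 of the 43 members were called, 9 higher and 2 lower, where 12.9% of all genes were called. This was 20.9% of the members in the higher direction, where 7.03% of all genes were called higher, and 4.65% in the lower direction, where 5.91% of all genes were called lower. The median log2 fold change of the members was 0.41, and that of all genes was 0.02. Both labelled libraries were above both miR-200a libraries in 29 members and below them in 4, where 30.2% and 28% of all genes were so. The 9 members that rose were the synthetase genes AARS, FARSA, NARS, RARS and TARS, the synthesis genes ASNS and PYCR1, the glutamine transporter gene SLC1A5, and CHAC1, and the 2 that fell were CEBPB and DDIT4.

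Against the NC mimic, the libraries labelled as miR-200a plus ELK3 had 8 called members, 6 higher and 2 lower, again beside 12.9% of all genes. The higher calls were 14.0% of the members and 6.92% of all genes, and the lower calls were 4.65% of the members and 5.95% of all genes. The 6 members that rose were FARSA, RARS, PYCR1, SLC1A5, SLC3A2 and SLC7A5, and CEBPB and DDIT4 fell. The median of the members was 0.24 on the log2 scale, beside 0.01 for all genes. Both labelled libraries were above both NC mimic libraries in 19 members and below them in 6, where 29% and 27.6% of all genes were so. The comparisons share libraries with each other, since the miR-200a libraries enter the first and the second and the NC mimic libraries the first and the third, so their values are set side by side and are not independent. The criteria of the study were applied as an unadjusted edgeR p under 0.05, fold change over 1.5 and mean log2 normalized count over 3. The edgeR p, the log2 scale and the mean were chosen here. By these criteria, 1 member was higher and 3 were lower for miR-200a versus the NC mimic, where 2.84% and 1.73% of all genes were. The labelled libraries had 13 higher and 1 lower against miR-200a (9.32% and 9.77% of all genes), and 8 higher and 4 lower against the NC mimic (9.38% and 10% of all genes).

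**Figure D1:**
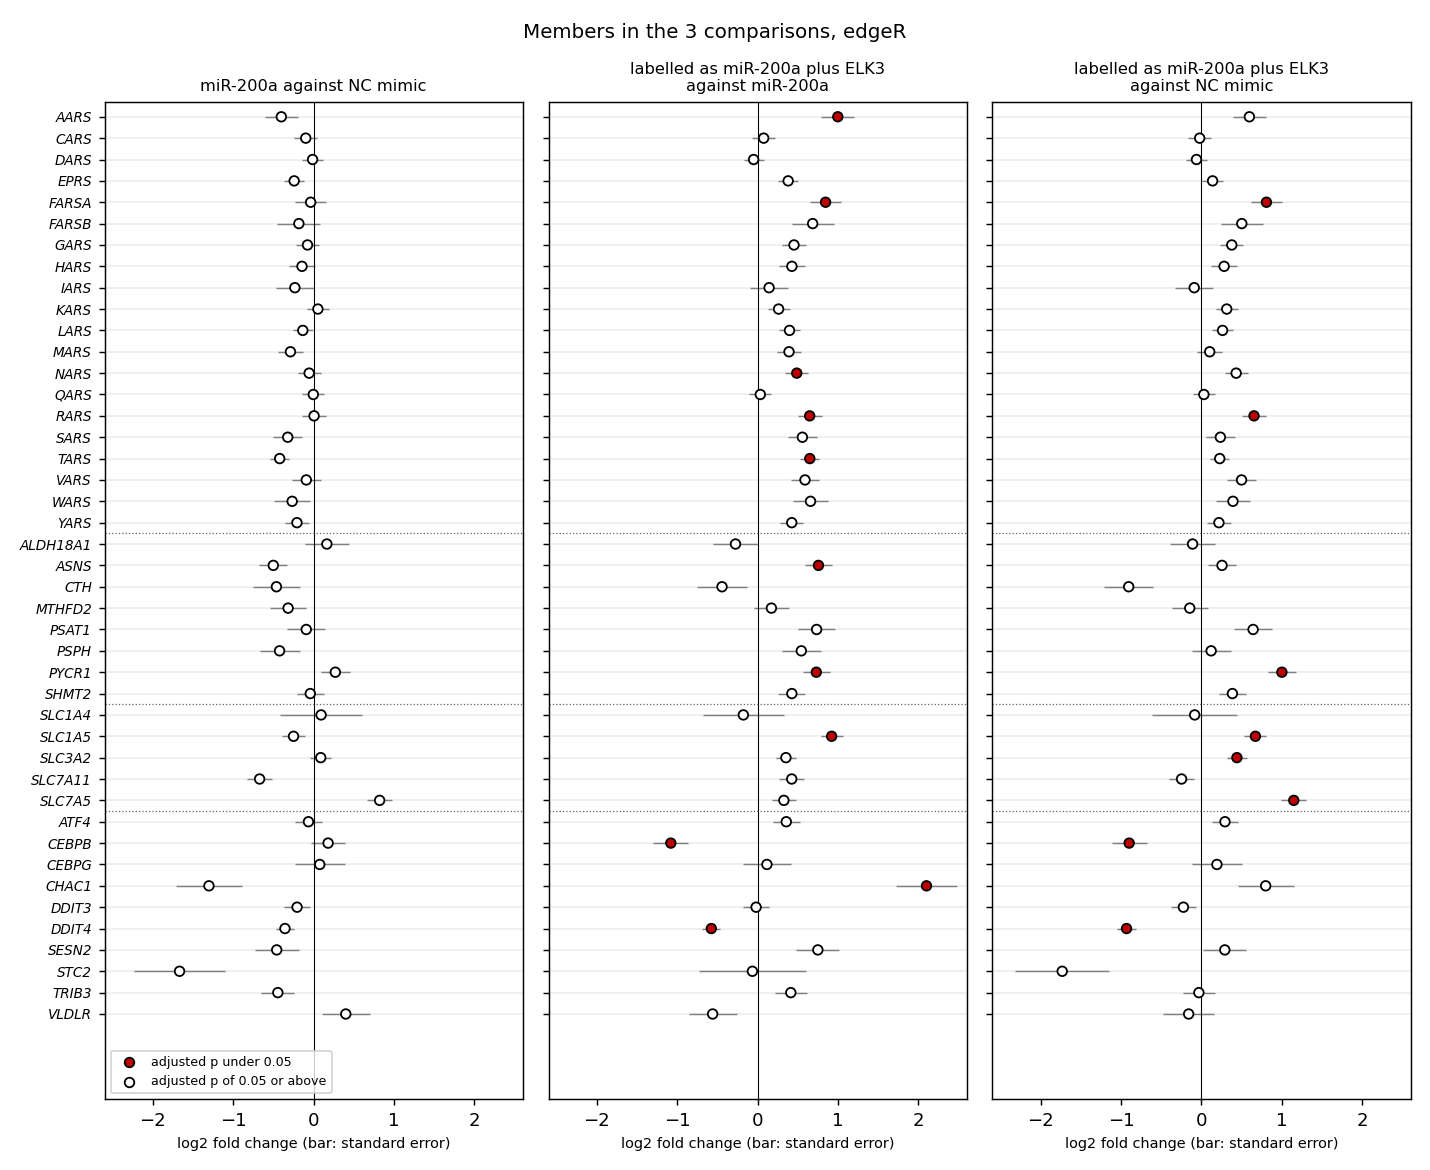
Log2 fold change (horizontal axis, with bars of 1 standard error) of the 43 tested members in the 3 comparisons, from the edgeR model of all 6 libraries. Filled points have an adjusted p under 0.05: 0 in the left panel, 11 in the middle panel and 8 in the right panel. Dotted lines separate synthetases, amino acid and one-carbon synthesis, transporters, and stress genes with regulators.

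These counts depended on single libraries, because each group has 2. When either miR-200a library was left out, no member was called between the labelled libraries and miR-200a. Leaving out either NC mimic library lowered the number of called members, with CHAC1, SLC1A5 and TARS still called higher. Leaving out either library labelled as miR-200a plus ELK3 raised it. The calls over all tested genes moved the same way in each case. With only the 4 libraries of both groups in the model, 3 members were higher (CHAC1, SLC1A5 and TARS) and 0 lower. In that model 268 of 12385 genes were called higher and 274 lower. With upper-quartile scaling in place of TMM, 8 members were higher and 2 lower, although the share of higher genes among all calls moved from 54.3% to 41.4%.

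Among the 20 synthetases, all of which were tested, none was called for miR-200a versus the NC mimic, and their log2 fold changes ran from -0.42 for TARS to 0.05 for KARS with a median of -0.14. In 12 of them both miR-200a libraries were below both NC mimic libraries, and in 0 they were above, where 26.1% and 22.9% of all genes were so. In the libraries labelled as miR-200a plus ELK3, 5 synthetases rose against miR-200a, where 7.03% of all genes did, and the other 15 did not pass the test. Their log2 fold changes ran from -0.05 for DARS to 1.00 for AARS, with a median of 0.44. Both labelled libraries were above both miR-200a libraries in 16 of the 20, where 30.2% of all genes were. Against the NC mimic, 2 synthetases were called higher, FARSA and RARS, where 6.92% of all genes were, and the median was 0.27, with IARS lowest at -0.09 and FARSA highest at 0.81. The summed CPM of the 20 synthetases was 2856 and 2833 under the NC mimic, 2442 and 2504 under miR-200a, and 3129 and 3646 in the labelled libraries. The 3 groups did not overlap in this sum, and the labelled libraries were 1.37 times the miR-200a libraries in the mean.

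AARS (chr16:70252295-70289543, GRCh38, GENCODE release 29) charges tRNA with alanine. Its counts were 287 and 203 under the NC mimic, 206 and 273 under miR-200a, and 337 and 497 in libraries labelled as miR-200a plus ELK3, which is 63.9 and 66.2 CPM, 42.8 and 55.6 CPM, and 79.8 and 117 CPM. The groups were ordered miR-200a, NC mimic and labelled libraries without overlap. The rise against miR-200a was 1.00 on the log2 scale (standard error, SE, of 0.20, adjusted p = 0.0147), whereas the difference from the NC mimic, 0.60, did not pass (adjusted p = 0.0802).

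FARSA, the catalytic alpha subunit of phenylalanyl-tRNA synthetase (chr19:12922479-12934037), had 64.6 and 64.9 CPM under the NC mimic, 56.9 and 69.3 CPM under miR-200a, and 92.8 and 134 CPM in the labelled libraries. It was above both other groups in the labelled libraries, by 0.85 on the log2 scale against miR-200a (SE 0.19, adjusted p = 0.0202) and by 0.81 against the NC mimic (SE 0.19, adjusted p = 0.0246). FARSB, the beta subunit of the same enzyme, had 40.3 and 73.8 CPM in the labelled libraries and 32.6 and 38.3 CPM under miR-200a, and it was not called (adjusted p = 0.108). The upper labelled library of FARSB was 1.83 times the lower one.

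RARS, the arginine enzyme (chr5:168486445-168519299), had 102 and 106 CPM under the NC mimic, 109 and 99.4 CPM under miR-200a, and 145 and 182 CPM in the labelled libraries. The NC mimic and miR-200a libraries overlapped, and the labelled libraries were above all 4 of them, by a log2 fold change of 0.65 in both comparisons (adjusted p = 0.0213 against miR-200a and 0.0211 against the NC mimic).

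TARS, the threonine enzyme (chr5:33440696-33469539), had the smallest adjusted p of the synthetases against miR-200a. It had 803 and 813 CPM under the NC mimic, 601 and 605 CPM under miR-200a, and 869 and 1023 CPM in the labelled libraries. The replicates of TARS lay close together in the NC mimic and miR-200a groups, and no group overlapped another. TARS rose by 0.65 on the log2 scale in the labelled libraries against miR-200a (SE 0.12, adjusted p = 0.00875). The value of miR-200a versus the NC mimic was -0.42 (SE 0.12, adjusted p = 0.24). NARS, the asparagine enzyme (chr18:57600656-57622213), had 147 and 147 CPM under the NC mimic, 145 and 139 CPM under miR-200a, and 175 and 222 CPM in the labelled libraries. NARS passed the threshold against miR-200a by a small margin (log2 fold change of 0.49, SE 0.14, adjusted p = 0.0488) and lost the call with DESeq2, with upper-quartile scaling and with a replicate block.

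**Figure D2:**
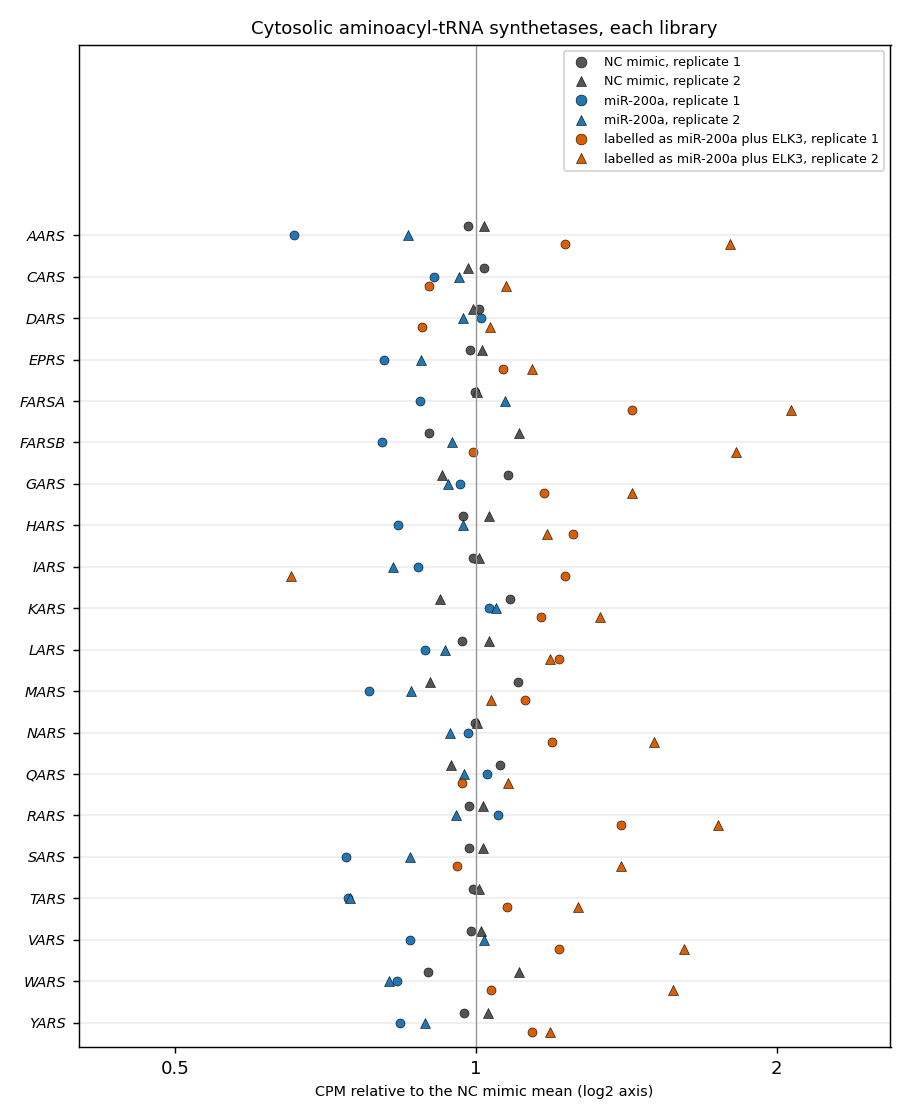
CPM of the 20 cytosolic synthetases in each of the 6 libraries, divided by the mean of the 2 NC mimic libraries (log2 axis, vertical line at 1). Circles are replicate 1 and triangles replicate 2. Most blue points (miR-200a) lie left of the orange points (libraries labelled as miR-200a plus ELK3). For IARS, and also for CARS, DARS, FARSB, QARS and SARS, the 2 orange points lie on opposite sides of the line.

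The 15 synthetases without a call included CARS, DARS, IARS and QARS, which overlapped between the labelled and the miR-200a libraries. IARS, the isoleucine enzyme, had 153 CPM in replicate 1 and 81.3 CPM in replicate 2 of the labelled libraries, and these lay on both sides of the 109 and 103 CPM under miR-200a. The remaining 11 were EPRS, FARSB, GARS, HARS, KARS, LARS, MARS, SARS, VARS, WARS and YARS. In each of these 11, left after the overlapping genes were set aside, both labelled libraries were above both miR-200a libraries. They are part of the 16 of 20 synthetases that were so, where 30.2% of all genes were. Their log2 fold changes ran from 0.26 for KARS to 0.69 for FARSB, and their adjusted p from 0.0556 for VARS to 0.226 for KARS. Leaving out either labelled library raised the calls over all tested genes. Which of these 15 synthetases were then called depended on the library left out, and IARS was lower without replicate 1 and higher without replicate 2.

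Asparagine, serine, proline and one-carbon enzymes made up the second class, of which 8 of 11 were tested. None was called for miR-200a versus the NC mimic (median log2 fold change of -0.20). ASNS and PYCR1 rose in the labelled libraries against miR-200a (median of the class 0.49, from -0.44 for CTH to 0.76 for ASNS). PYCR1 alone rose against the NC mimic (median 0.19). Of all genes, 7.03% were called higher against miR-200a and 6.92% against the NC mimic. The summed CPM of the class was 442 and 425 under the NC mimic, 409 and 405 under miR-200a, and 590 and 521 in the labelled libraries.

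ASNS (chr7:97852118-97872542) makes asparagine from aspartate and glutamine and is a standard readout of the ATF4 response. Its counts were 266 and 193 under the NC mimic, 206 and 213 under miR-200a, and 265 and 353 in libraries labelled as miR-200a plus ELK3, which is 59.2 and 63.0 CPM, 42.8 and 43.4 CPM, and 62.8 and 83.0 CPM. Both miR-200a libraries were below the other 4, and the labelled libraries overlapped with the NC mimic. ASNS rose by 0.76 on the log2 scale in the labelled libraries against miR-200a (SE 0.17, adjusted p = 0.0211). The difference of miR-200a from the NC mimic, -0.50 (SE 0.17), had an adjusted p of 0.397, and the difference of the labelled libraries from the NC mimic was 0.26 (adjusted p = 0.345).

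PYCR1, the mitochondrial enzyme of the last step of proline synthesis (chr17:81932384-81942412), had 52.3 and 53.2 CPM under the NC mimic, 67.1 and 60.1 CPM under miR-200a, and 90.0 and 121 CPM in the labelled libraries. Here the NC mimic was lowest, unlike for ASNS, and no group overlapped another. PYCR1 rose by 0.73 against miR-200a (SE 0.17, adjusted p = 0.0231) and by 1.00 against the NC mimic (SE 0.18, adjusted p = 0.00742), both on the log2 scale.

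In the serine pathway no member was called by edgeR in the model of 6 libraries. PSAT1, its aminotransferase, had 86.6 and 85.5 CPM under the NC mimic, 83.9 and 77.6 CPM under miR-200a, and 174 and 95.2 CPM in the labelled libraries. Both labelled libraries of PSAT1 were above the other 4, but replicate 1 was 1.82 times replicate 2, and the log2 fold change of 0.73 against miR-200a (SE 0.23) had an adjusted p of 0.0642. PSAT1 was called with DESeq2 (adjusted p = 0.0441), without the filter on low counts (adjusted p = 0.000769), with the GC correction described with the replicates (adjusted p = 0.0157) and without replicate 2 of the labelled libraries (adjusted p = 4.12e-09), and over all alternatives its adjusted p ranged up to 0.323, without replicate 2 of miR-200a. PHGDH, the first enzyme of the pathway, had 10 and 1 counts under the NC mimic, 5 and 9 under miR-200a, and 4 and 3 in the labelled libraries, too few to be tested. PSPH, which releases serine in the last step, and SHMT2, which passes its carbon to folate in mitochondria, had log2 fold changes of 0.54 and 0.43 against miR-200a (adjusted p = 0.163 and 0.119). MTHFD2, the next mitochondrial folate enzyme, and ALDH18A1, the first enzyme of proline synthesis, overlapped between the labelled and the miR-200a libraries. CTH, the last enzyme of cysteine synthesis from methionine, was the lowest of the class against the NC mimic, at -0.91 on the log2 scale (SE 0.31, adjusted p = 0.0784), with 55 and 40 counts under the NC mimic and 33 and 24 in the labelled libraries.

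The transporters carry amino acids across the plasma membrane, and all 5 were tested. None was called for miR-200a versus the NC mimic. SLC1A5 rose in the labelled libraries against miR-200a, where 7.03% of all genes were called higher. SLC1A5, SLC3A2 and SLC7A5 rose against the NC mimic, where 6.92% of all genes were called higher. The medians of the 3 comparisons were 0.09, 0.35 and 0.44 on the log2 scale, and the summed CPM was 407 and 427 under the NC mimic, 379 and 377 under miR-200a, and 550 and 535 in the labelled libraries. SLC7A5 and SLC3A2 encode the light and heavy chains of LAT1, the exchanger for leucine and other large neutral amino acids. SLC7A5 (chr16:87830023-87869488) had 202 and 116 counts under the NC mimic, 351 and 364 under miR-200a, and 405 and 377 in libraries labelled as miR-200a plus ELK3, which is 45.0 and 37.9 CPM, 72.9 and 74.2 CPM, and 95.9 and 88.6 CPM. The groups did not overlap, and the NC mimic was lowest. SLC7A5 rose by 1.15 on the log2 scale in the labelled libraries against the NC mimic (SE 0.16, adjusted p = 0.00238). The value of miR-200a versus the NC mimic was 0.82 (SE 0.16, adjusted p = 0.0715), which was called by DESeq2 and in the model without the labelled libraries. Against miR-200a the labelled libraries had 0.33 (adjusted p = 0.167).

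SLC3A2 (chr11:62856102-62888875) had 102 and 103 CPM under the NC mimic, 108 and 109 CPM under miR-200a, and 135 and 142 CPM in the labelled libraries. It was highest in the labelled libraries and rose by 0.44 against the NC mimic (SE 0.13, adjusted p = 0.0489), a call that was lost with DESeq2, with upper-quartile scaling, without the filter on low counts and with a replicate block. Its log2 fold change against miR-200a was 0.35 (adjusted p = 0.0927).

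SLC1A5, the main glutamine transporter of many cancer cells (chr19:46774883-46788594), had the smallest adjusted p of all members in the labelled libraries against miR-200a. Its counts were 497 and 325 under the NC mimic, 469 and 417 under miR-200a, and 699 and 765 in the labelled libraries, which is 111 and 106 CPM, 97.4 and 85.0 CPM, and 166 and 180 CPM. The labelled libraries were above the other 4 libraries. SLC1A5 rose by 0.92 on the log2 scale against miR-200a (SE 0.14, adjusted p = 0.00433) and by 0.67 against the NC mimic (SE 0.14, adjusted p = 0.0134).

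SLC7A11 encodes the light chain of the cystine and glutamate exchanger, which supplies cysteine for glutathione. It had 147 and 178 CPM under the NC mimic, 98.6 and 105 CPM under miR-200a, and 151 and 122 CPM in the labelled libraries. The miR-200a libraries were lowest, and the labelled libraries overlapped with the NC mimic. None of its differences was called in the model of 6 libraries, with -0.67 for miR-200a versus the NC mimic (SE 0.15, adjusted p = 0.132), 0.42 for the labelled libraries against miR-200a (adjusted p = 0.0951) and -0.25 against the NC mimic (adjusted p = 0.308). SLC1A4, a carrier of alanine, serine and cysteine, had 7 to 17 counts per library, and its 3 groups overlapped (log2 fold change of -0.18 in the labelled libraries against miR-200a).

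**Figure D3:**
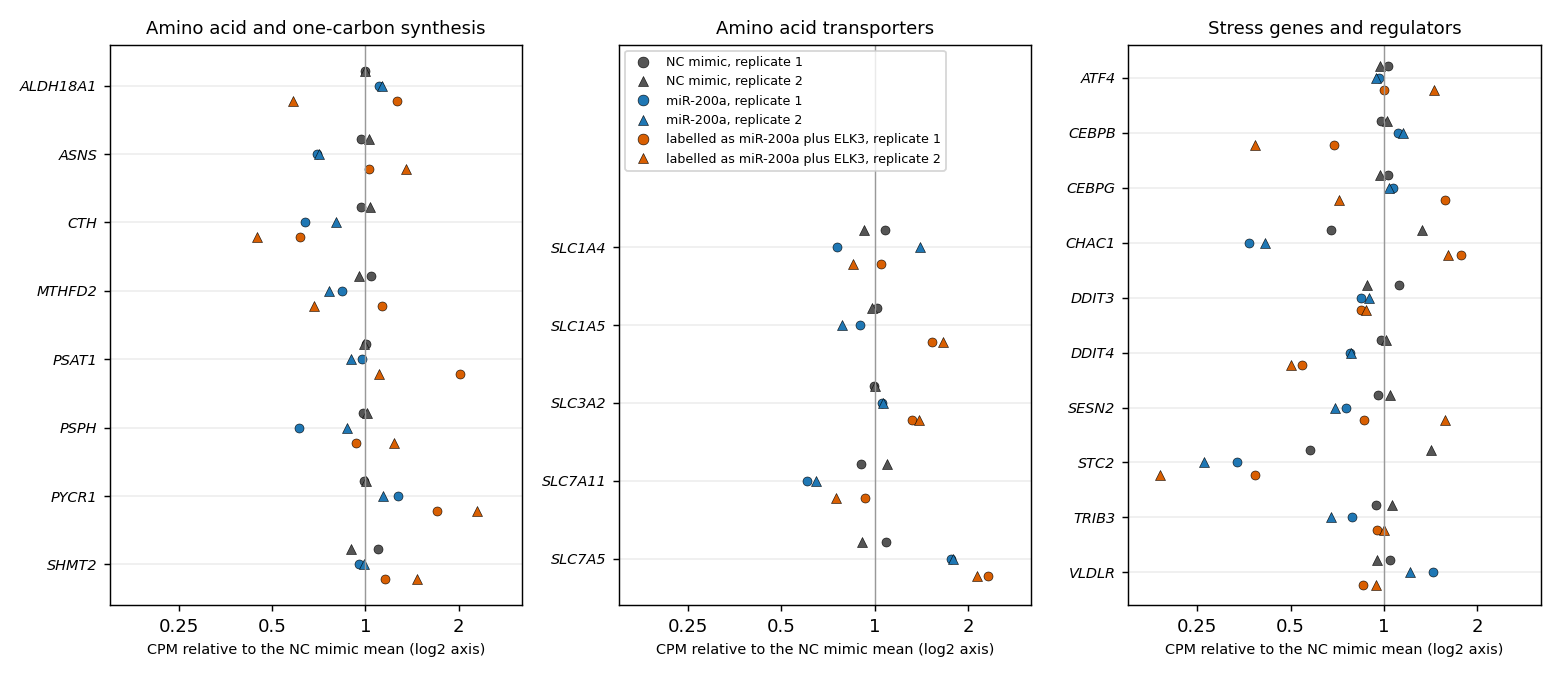
CPM of the tested members of the other 3 classes in each library, divided by the mean of the 2 NC mimic libraries (log2 axis). Circles are replicate 1 and triangles replicate 2. SLC7A5 is right of the line in all 4 libraries under miR-200a, CHAC1 is left of it under miR-200a and right of it in the libraries labelled as miR-200a plus ELK3, and DDIT4 and CEBPB lie left of it in both labelled libraries.

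ATF4 itself, the transcription factor of this response, had 262 and 246 CPM under the NC mimic, 246 and 240 CPM under miR-200a, and 254 and 369 CPM in libraries labelled as miR-200a plus ELK3. Replicate 1 of the labelled libraries lay among the NC mimic values and replicate 2 was 1.45 times as high. The mRNA of ATF4 was not called in any comparison, with a log2 fold change of 0.36 (SE 0.17, adjusted p = 0.173) in the labelled libraries against miR-200a. The 10 members of this class, all tested, did not share a direction. Their median log2 fold change was -0.28 for miR-200a versus the NC mimic, 0.05 for the labelled libraries against miR-200a and -0.10 against the NC mimic. The summed CPM was 1421 and 1442 under the NC mimic, 1327 and 1340 under miR-200a, and 1046 and 998 in the labelled libraries, highest under the NC mimic and lowest in the labelled libraries. DDIT4 and CEBPB carried this order: the sum of the other 8 genes, taken after the values were seen, was 454 and 432 under the NC mimic, 404 and 396 under miR-200a, and 440 and 556 in the labelled libraries, which overlapped with the NC mimic and were above miR-200a.

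CHAC1 (chr15:40952962-40956519) breaks down glutathione and is strongly induced by ATF4 in many cells. It had 24 and 32 counts under the NC mimic, 14 and 16 under miR-200a, and 59 and 54 in the labelled libraries, which is 5.34 and 10.4 CPM, 2.91 and 3.26 CPM, and 14.0 and 12.7 CPM. The 3 groups did not overlap at these low counts. CHAC1 had the largest rise of all members against miR-200a, 2.10 on the log2 scale or 4.29-fold (SE 0.38 on that scale, adjusted p = 0.00916). The value of miR-200a versus the NC mimic was -1.30 (SE 0.41, adjusted p = 0.321), and the NC mimic replicates of CHAC1 differed from each other by more than counting error. Against the NC mimic the labelled libraries had 0.80 (SE 0.35, adjusted p = 0.153).

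DDIT3, TRIB3 and SESN2, further stress genes that ATF4 is known to induce, were not called by edgeR in the model of 6 libraries. DDIT3, which encodes the transcription factor CHOP, had 94.0 and 74.1 CPM under the NC mimic, 70.8 and 75.4 CPM under miR-200a, and 71.0 and 73.3 CPM in the labelled libraries. The labelled libraries of DDIT3 lay within the range of the miR-200a libraries, with a log2 fold change of -0.02 (SE 0.16, adjusted p = 0.952). TRIB3, a pseudokinase that feeds back on ATF4, had 26.1 and 29.4 CPM, 21.8 and 18.7 CPM, and 26.3 and 27.7 CPM in the same order of groups. Both miR-200a libraries of TRIB3 were lowest, and the value in the labelled libraries against miR-200a was 0.41 (SE 0.20, adjusted p = 0.195). SESN2, a leucine sensor that restrains mTORC1, had 28.1 and 30.7 CPM, 22.2 and 20.4 CPM, and 25.3 and 46.3 CPM. The second labelled library of SESN2 was 1.83 times the first, and the log2 fold change of 0.75 against miR-200a had an adjusted p of 0.0911. SESN2 was called without the filter on low counts (adjusted p = 0.0155) and without replicate 1 of the labelled libraries (adjusted p = 2.42e-05), and over all alternatives its adjusted p ranged up to 0.528, without replicate 2 of the labelled libraries.

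DDIT4, which encodes the mTORC1 inhibitor REDD1 (chr10:72273920-72276036), moved the other way. It had 520 and 541 CPM under the NC mimic, 412 and 416 CPM under miR-200a, and 289 and 267 CPM in the labelled libraries. The groups did not overlap and the replicates of each lay close together. DDIT4 fell by 0.58 on the log2 scale in the labelled libraries against miR-200a (SE 0.11, adjusted p = 0.013) and by 0.93 against the NC mimic (SE 0.11, adjusted p = 0.00136), and miR-200a versus the NC mimic gave -0.36 (SE 0.11, adjusted p = 0.326).

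CEBPB, a bZIP transcription factor that can pair with ATF4 (chr20:50190734-50192689), had 447 and 470 CPM under the NC mimic, 511 and 528 CPM under miR-200a, and 316 and 176 CPM in the labelled libraries. Both labelled libraries were below the other 4, although the first was 1.80 times the second. CEBPB fell by 1.08 on the log2 scale against miR-200a (SE 0.22, adjusted p = 0.0138) and by 0.90 against the NC mimic (SE 0.22, adjusted p = 0.0255). Its relative CEBPG had 41.2 and 18.8 CPM in the labelled libraries, on both sides of the other groups. STC2, a secreted glycoprotein, had 16 and 27 counts under the NC mimic, 10 and 8 under miR-200a, and 10 and 5 in the labelled libraries, and its log2 fold change of -1.73 against the NC mimic (SE 0.58, adjusted p = 0.0766) did not pass. VLDLR, a lipoprotein receptor, had 21 to 50 counts per library and no call.

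The 9 members with TGATGNAA in the promoter window were set beside the other tested members. In the labelled libraries against miR-200a, 5 of these 9 were called higher (AARS, NARS, TARS, ASNS and CHAC1) and 0 lower, with a median log2 fold change of 0.49. Of all genes, 7.03% were called higher in this comparison. Of the 26 tested members whose window held no match, 3 were called higher (FARSA, RARS and SLC1A5) and 2 lower, with a median of 0.34, and of the 8 without a listed promoter 1 was called higher (PYCR1). The CARS, IARS and MARS windows, whose matches are printed among the sequences, belonged to genes with no call in any comparison. Against the NC mimic, 1 of the 9 was called higher (SLC3A2), with a median of 0.26, where 6.92% of all genes were. Of the 26 without a match, 4 were called higher (FARSA, RARS, SLC7A5 and SLC1A5) and 2 lower, with a median of 0.21. Of the 8 without a listed promoter 1 was called higher (PYCR1). For miR-200a versus the NC mimic none was called, with medians of -0.29 for the 9 and -0.12 for the 26. The groups of genes are small and the difference between them was not tested.

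Direct matches to the miR-200a seed were counted in the 3′UTRs of GENCODE release 29 (GRCh38). The site CAGTGTT, which pairs with bases 2 to 8, was present in 6 of the 43 tested members (14.0%) and in 2263 of 11641 tested genes with an annotated 3′UTR (19.4%). These members were CEBPG, DARS, SESN2, SLC1A4, VLDLR and WARS, and none of them was called for miR-200a versus the NC mimic. The sites of DARS and SESN2 are printed in the sense of the transcript with the site in capitals, because the first was the only one followed by an A, a base that is known to strengthen such sites, and the second lay closest to the transcript end, 76 bases from it:
DARS, chr2:135906929-135906951 (-): aagggcccCAGTGTTaatgtctt
SESN2, chr1:28282401-28282423 (+): gtggtatcCAGTGTTcaagtgca

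DARS had 235 and 232 CPM under the NC mimic and 236 and 227 CPM under miR-200a, and these groups overlapped. SESN2 was lower in both miR-200a libraries than in both NC mimic libraries, with a log2 fold change of -0.46 (SE 0.27, adjusted p = 0.686). The 6 members that were lower under miR-200a at an unadjusted p under 0.05 (TARS, ASNS, SLC7A11, DDIT4, CHAC1 and STC2) held no match.

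Other genes of the same pathways were counted from lists, to be read against the 7.03% of all genes called higher and 5.91% called lower against miR-200a, and the 6.92% and 5.95% against the NC mimic. Of 17 tested mitochondrial synthetases, none was called for miR-200a versus the NC mimic. In the labelled libraries 1 was called higher against miR-200a and 2 against the NC mimic. Both labelled libraries were above both miR-200a libraries in 8 of the 17 and below them in 1, where 30.2% and 28% of all genes were so. The summed CPM of the 17 was 344 and 325 under the NC mimic, 333 and 336 under miR-200a, and 402 and 413 in the labelled libraries. CARS2, the mitochondrial cysteine enzyme, had 32.7 and 37.9 CPM under the NC mimic, 33.8 and 31.0 CPM under miR-200a, and 58.7 and 92.4 CPM in libraries labelled as miR-200a plus ELK3. It was highest in both labelled libraries, by 1.22 on the log2 scale against miR-200a (adjusted p = 0.00896) and by 1.10 against the NC mimic (adjusted p = 0.0129). AARS2, the mitochondrial alanine enzyme, was called against the NC mimic alone (0.97, adjusted p = 0.0299). AIMP2, a scaffold of the complex that holds many cytosolic synthetases, was the called gene among 5 tested genes of that complex and of RNA export, with 0.55 against miR-200a (adjusted p = 0.0326) and 0.83 against the NC mimic (adjusted p = 0.00732).

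Among 13 tested genes of eIF2alpha phosphorylation and of its exchange factor, 3 were called against miR-200a (2 higher and 1 lower) and 4 against the NC mimic (3 higher and 1 lower), and the smallest adjusted p in both belonged to a fall. PPP1R15A encodes GADD34, the stress-induced subunit that directs a phosphatase to eIF2alpha. It had 255 and 260 CPM under the NC mimic, 211 and 210 CPM under miR-200a, and 115 and 117 CPM in the labelled libraries. The replicates almost coincided, and PPP1R15A fell by 0.86 on the log2 scale against miR-200a (SE 0.12, adjusted p = 0.00346) and by 1.15 against the NC mimic (SE 0.12, adjusted p = 0.00071). EIF2B3 and EIF2B5, subunits of the exchange factor eIF2B, rose against miR-200a by 0.91 and 0.85 (adjusted p = 0.0231 and 0.0294), and EIF2S1, which is eIF2alpha, rose by 0.50 against the NC mimic (adjusted p = 0.0321), as did EIF2B2 and EIF2AK1. The kinase genes EIF2AK3 and EIF2AK4 were not called in any comparison, with 11.4 to 23.0 CPM and 59.2 to 83.4 CPM over the 6 libraries.

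Further genes, from a list drawn up for the ATF4 response, went in both directions. Whether each of them depends on ATF4 in these cells was not tested. Of 13 tested, 3 rose and 4 fell in the labelled libraries against miR-200a. Those that fell included GDF15, a stress-induced cytokine, with 255 and 251 CPM under miR-200a and 33.4 and 32.2 CPM in the labelled libraries, a log2 fold change of -2.95 (adjusted p = 1.44e-05). TXNIP, an inhibitor of thioredoxin and of glucose uptake, fell by 1.94 (adjusted p = 0.000148). ATF3, a bZIP factor of the stress response, had 96.4 and 78.0 CPM under the NC mimic, 91.8 and 92.7 CPM under miR-200a, and 35.8 and 36.7 CPM in the labelled libraries, and it fell by 1.35 against miR-200a (adjusted p = 0.00194) and by 1.27 against the NC mimic (adjusted p = 0.00167). CEBPD was the fourth that fell. The 3 that rose, named after their values were seen, were ATF5, GPT2 and SLC7A1, a bZIP factor, an alanine aminotransferase and a carrier of cationic amino acids, and ATF5 and GPT2 both had 1.09 on the log2 scale (adjusted p = 0.0141 and 0.0168). SLC38A2, a carrier of small neutral amino acids, was called higher against the NC mimic with ATF5 and GPT2, and ATF3, GDF15 and TXNIP were called lower.

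Of the genes of folate and nucleotide carbon, GCSH, of the glycine cleavage system, rose in the labelled libraries against the NC mimic (1.05, adjusted p = 0.0376). Among 12 genes of endoplasmic reticulum chaperones and of the IRE1 and ATF6 branches of the unfolded protein response, none was called in the labelled libraries against miR-200a. Against the NC mimic, CRELD2 rose by 0.86 (adjusted p = 0.0187) and HSP90B1 fell by 0.45 (adjusted p = 0.0251). HSPA5, the chaperone BiP, had 2738 and 2491 CPM under the NC mimic, 2387 and 2337 CPM under miR-200a, and 1988 and 2380 CPM in the labelled libraries, and was not called. No gene of these 6 lists was called for miR-200a versus the NC mimic.

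The members, like the tested genes as a whole, differed between the 2 libraries labelled as miR-200a plus ELK3. Beyond the 95% interval that counting error allows, replicate 2 was higher than replicate 1 in 19 of the 43 tested members and lower in 8. In the NC mimic group these numbers were 3 and 5, and in the miR-200a group 4 and 1. Such counts were not made over all tested genes. In the labelled libraries the standard deviation of the replicate difference in log2 CPM was 0.50 over the members and 0.56 over all tested genes. The members thus spread no more than the whole table. The 19 included 13 synthetases, such as FARSB (1.83-fold), WARS (1.52-fold) and AARS (1.46-fold), together with SESN2 (1.83-fold) and ATF4 (1.45-fold). The 8 that were higher in replicate 1 included CEBPG (2.19-fold), ALDH18A1 (2.17-fold), IARS (1.88-fold), PSAT1 (1.82-fold), CEBPB (1.80-fold) and MTHFD2 (1.65-fold). Transcript GC content moved with these differences. Across the 43 members, which share 2 libraries and so are not independent, Spearman's rho between the replicate difference and the GC content of the last 500 transcript bases was 0.506 in the labelled libraries, 0.222 under miR-200a and 0.021 under the NC mimic. Across 11641 tested genes it was 0.367, -0.034 and -0.154. Not all members followed it: DARS, at 26.4% GC the lowest of the tested members, and NARS at 34.4% were higher in replicate 2 (1.17-fold and 1.26-fold). With a correction for this GC content, chosen after the data had been seen, 12 members were higher and 2 lower in the labelled libraries against miR-200a, where 8.44% of 11641 genes were called higher and 7.71% lower, the 9 higher calls being kept and VARS, PSAT1 and SLC7A11 being added. Against the NC mimic 6 were higher and 2 lower (8.4% and 7.21% of these genes), with PSAT1 added and SLC3A2 lost (adjusted p = 0.115).

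**Figure D4:**
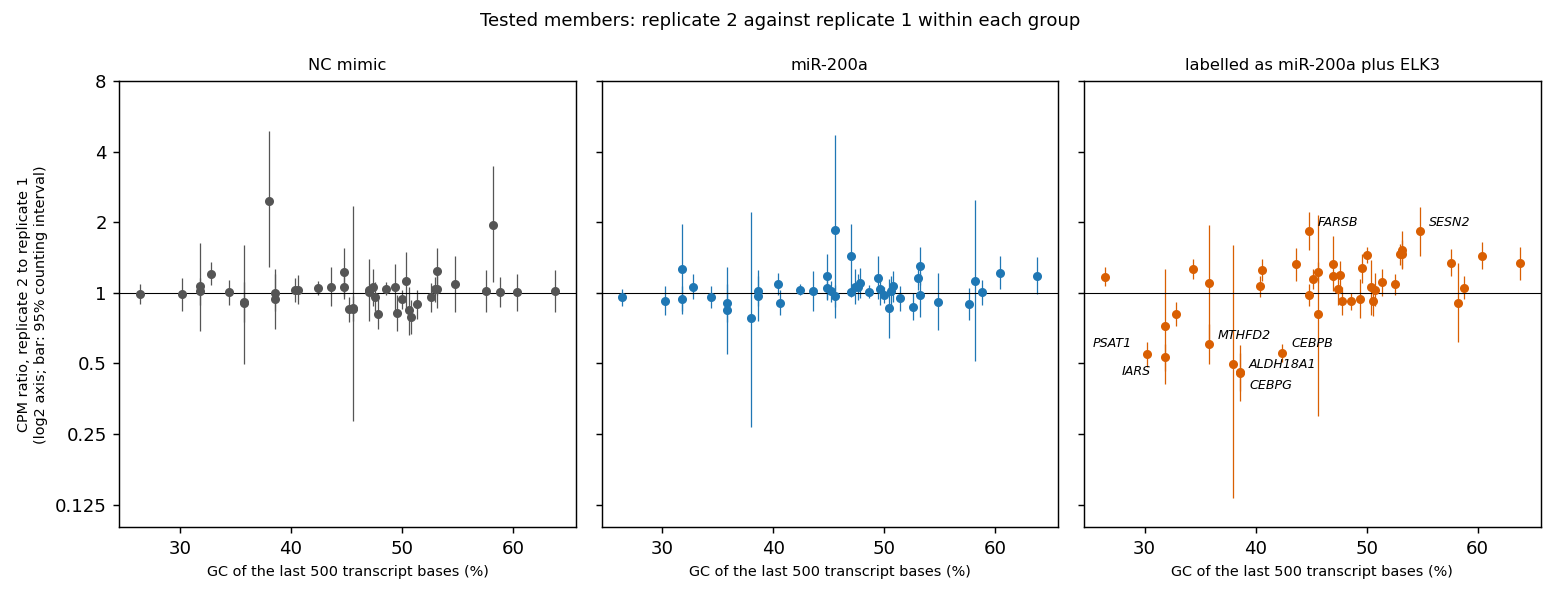
Ratio of replicate 2 to replicate 1 in CPM (vertical log2 axis, bars of the 95% counting interval) against the GC content of the last 500 transcript bases in percent, for the 43 tested members in each group. In the libraries labelled as miR-200a plus ELK3, PSAT1 and IARS lie below 1 at low GC and SESN2 above it at higher GC, whereas DARS and NARS lie above 1 at low GC, and most points of the other groups lie nearer to 1.

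Some counts cannot be assigned to 1 gene with certainty. Within 1000 bases of the annotated 3′ end, 13 members overlap another gene, among them MARS and DDIT3 with each other, PYCR1 with AC145207.4, DDIT4 with DDIT4-AS1 and ASNS with AC079781.5, and whether the counting used strand is not given in the sources used here. Named pseudogenes exist for 14 members, among them ATF4, ASNS, PSAT1, MTHFD2, AARS, NARS and RARS, and reads could be split between such copies.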

How the data were processed

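RNA was measured by QuantSeq 3′ mRNA sequencing in 6 libraries of MDA-MB 231 cells. The authors deposited counts for each gene symbol as whole numbers, without normalization. The submitters' processing notes list Bowtie2, edgeR and hg19, and the paper names ExDEGA; the counting program and the annotation are not given in the sources used here. Each table held 25737 lines, and lines that shared 1 of 286 symbols were summed. The sample labels gave the groups. Analysis used edgeR 4.0.16 under R 4.3.3 (TMM, filterByExpr with a minimum count of 10, a quasi-likelihood model of all 6 libraries with 3 residual degrees of freedom), and adjusted p-values are Benjamini-Hochberg values over all tested genes; the test was checked on simulated data. A standard error is the log2 fold change divided by the square root of F. The alternatives were DESeq2 1.42.0, upper-quartile scaling, no filter, a model restricted to the 2 compared groups, the replicate number as a block, leaving out each library, and the criteria of the study (unadjusted p under 0.05, fold change over 1.5, mean log2 normalized count over 3). The paper used ExDEGA and states no scale for its normalized data over 3. The edgeR p, the log2 scale and the mean over the compared libraries were chosen here. A lowess correction (span 0.3) for the GC content of the last 500 transcript bases and a block with crossed replicate numbers were added after the data had been seen.

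The members and lists were chosen with earlier results of these data known. Values are given for called members, for ATF4, ASNS, DDIT3, TRIB3, CHAC1, SESN2, PSAT1, PHGDH, SLC7A11, SLC7A5 and SLC3A2 whatever their result, for the highest and lowest fold change of a class, and for at most 3 called genes of each other list with ATF3, EIF2AK3, EIF2AK4, PPP1R15A and HSPA5 in addition. The reads were mapped to hg19 by the notes, while sequences and positions were read from RefSeq (GRCh38.p14) and GENCODE release 29 (GRCh38) by symbol, with GCN1L1 of a list matched to GCN1. Depth per library sets the precision: a floor of 3 counts was used. The paper's reporter, invasion and animal data are not analysed here, and some listed genes are not reported here.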

Additional observations from a re-analysis of the deposited data

How the results depend on the processing

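Against the counts of called members in the model of 6 libraries (0 higher and 0 lower in the first comparison, miR-200a versus the NC mimic, 9 and 2 in the second, the labelled libraries against miR-200a, and 6 and 2 in the third, the labelled libraries against the NC mimic), DESeq2 called 1 higher in the first comparison. Without the filter on low counts the first had 1 higher and 1 lower and the second 16 higher. With only the 2 groups compared there were 2 higher and 6 lower, 3 higher and 0 lower, and 3 higher and 1 lower in the 3 comparisons. By the criteria of the study the first had 1 higher and 3 lower, the second 1 lower and the third 4 lower. Leaving out 1 library at a time gave 0 to 2 higher and 0 to 6 lower in the first, 0 to 23 higher and 0 to 5 lower in the second, and 0 to 19 higher and 1 to 8 lower in the third; where this left 1 library in a group, that library was assumed to vary like the others. In the third comparison, 0 members were higher without NC mimic replicate 2, 1 without NC mimic replicate 1, 2 without either miR-200a library, and 19 without replicate 1 of the labelled libraries. In the first, 6 were lower without either labelled library.

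The number of called genes over the whole table moved as well. In the first comparison it was 34, with DESeq2 88, without the filter 230, with only the 2 groups 983, with the replicate block 13, with the crossed block 22, by the criteria of the study 578, and 0 to 1010 without 1 library. In the second it was 1637, without the filter 2490, with only the 2 groups 542, and 31 to 4684 without 1 library. In the third it was 1629, without the filter 2525, with only the 2 groups 587, by the criteria of the study 2455, and 96 to 4675 without 1 library. Upper-quartile scaling moved the share of higher genes among the calls from 54.3% to 41.4% in the second and from 53.8% to 42.9% in the third, and called 8 higher and 2 lower members and 5 higher and 2 lower members there.

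Same-numbered replicates did not deviate together (correlations of -0.003, -0.036 and -0.108 in the 3 comparisons), so the numbers were not shown to pair the libraries. A replicate block gave 0 and 0, 8 and 2, and 5 and 2 members higher and lower. A block with the numbers of the labelled libraries crossed gave 0 and 0, 9 and 2, and 5 and 2.

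Of 71 log2 fold changes reported by name under 12 alternatives, 654 fits kept the sign and the side of the threshold, 145 lost a call, 47 gained one and 6 changed sign. The changes of sign were in values between -0.18 and 0.05. DARS in the labelled libraries against miR-200a was 0.15 with the GC correction and ran from -0.20 to 0.050 without 1 library, DDIT3 ran from -0.072 to 0.031 and SLC1A4 from -0.55 to 0.33 in the same comparison, IARS against the NC mimic ran from -0.61 to 0.28, and KARS in the first comparison from -0.057 to 0.18. The cause of these shifts was not tested.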
